A study of Mus musculus with 18 samples.

Results

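The transcripts of 8 genes that mark commitment to the B cell lineage and assembly of the pre-B cell receptor were followed through hematopoietic progenitor (HP) libraries of mouse bone marrow (BM). The genes were Ebf1 and Pax5, Cd79a and Cd79b, Vpreb1, Vpreb3 and Igll1, and Dntt. They were taken as a fixed list, and all 8 were among the 20275 genes of the deposited matrix of UMI (unique molecule) counts. The values come from 20982 HP cells of 5 libraries. HPs were sorted as CD45+ Lineage-Kit+ cells from C57B6/J mice without a transgene or treatment, at embryonic day E16.5 (2 libraries) or E18.5, on the day of birth (P0) or as adults (1 library each). Every library was made from pooled mice, from the fetal or newborn skeleton without the head bones or from adult tibias, femurs, pelvis and spine. The 4 libraries up to P0 are called perinatal here. The single-cell experiments were not repeated per the study's reporting summary, so that the spread between both E16.5 libraries may be technical. They were unlike in make-up, with T and NK clusters at 3.21% of cells in the first and 45.1% in the second.

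B lymphopoiesis begins in progenitors that switch on EBF1 and then PAX5, transcription factors that turn on B cell genes and turn off those of other lineages. Pro-B cells next join the segments of the immunoglobulin heavy chain gene, and DNTT (terminal deoxynucleotidyl transferase, TdT) adds bases at the joints that no template encodes. A new heavy chain is tested at the cell surface together with the surrogate light chain, made of VPREB and IGLL1 (lambda 5), and with the signalling partners CD79A and CD79B. Most fetal mouse B cells are known for immunoglobulin joints with few added bases.

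Cells were grouped by the authors' cluster codes. The codes that name B cells or pre/pro-B cells held 28 of 560 and 181 of 4752 cells in the first and second E16.5 library, then 152 of 3477 E18.5 cells, 387 of 6208 newborn cells and 1139 of 5985 adult cells. These cells are called B-lineage cells. The perinatal ones carry the code Bcell1, with a further 61 cells under BCell2 at P0, and the adult ones are split into Pre/Pro-B1 (441 cells), Pre/Pro-B2 (246 cells), Bcell3 (347 cells) and Bcell4 (105 cells). All of these clusters held at least 1 UMI each of 14 or 15 of 15 B-lineage markers. No marker of another cell class stood among their 10 leading genes. The B-lineage markers include the genes under study other than Dntt, so this check is not independent of them. A single UMI is also a low bar, since Mast1 of the second E16.5 library held Ebf1, Pax5 and Igll1 too. B-lineage markers were 4 to 7 of the 10 leading genes in the perinatal clusters, but 2 in Pre/Pro-B2, 1 each in Pre/Pro-B1 and Bcell3 and 0 in Bcell4, whose names rest on the authors' codes. Kit, the receptor used for the sort, was present at 36.7 to 60.5 counts per 1000000 UMIs (CPM) in perinatal B-lineage cells and at 35.3 and 68.7 CPM in Pre/Pro-B1 and Pre/Pro-B2. In Bcell3 and Bcell4 it was at 13.7 (11 UMIs) and 1.59 CPM (1 UMI). Pooled cells outside the B-lineage clusters held more Kit, with 133 to 361 CPM in perinatal libraries and 118 CPM in the adult. The transcript of the gate's defining marker was thus lower in B-lineage cells than in other cells of every library. It was lower again in Bcell3 and nearly missing from Bcell4. Where the study's methods define Lineage-, they list B220, a surface protein of most B-lineage cells, as low there, a gate that would remove B220+ cells at every stage. The median B-lineage cell held 20065.5, 10854, 22806, 13862 and 2907 UMIs, in the order of the libraries above, which is the order of all value lists that follow.

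Cell barcodes recurred between libraries: 334 cells (59.6%) of the first E16.5 library, 788 (13.2%) in the adult and 1.60% to 12.2% elsewhere shared theirs with a cell of another library. Without the shallower cell of each shared barcode, of which 36 were adult B-lineage cells, Dntt stood at 442 CPM in adult B-lineage cells, against 440.1 CPM with them. Other lineages' transcripts also moved with library. A list of mast cell genes summed to 1968 CPM in B-lineage cells of the second E16.5 library against 11.9 to 175 CPM elsewhere, and a list of neutrophil and myeloid progenitor genes to 3760 CPM in the adult against 11.6 to 406 CPM. Their part in the results was not tested. A group's UMIs were summed before CPM were computed, and 95% intervals, given in parentheses, are exact and cover counting error only (Poisson for CPM, Clopper-Pearson for shares of cells). Since the clusters were drawn from the same transcripts, levels in B-lineage cells against other cells are a description without a test.

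Promoter windows of the genes on which the results turn are shown from RefSeq (GRCm38.p6), from 250 bases before to 50 after the annotated start, for the duplicated Vpreb genes, for Igll1 beside Vpreb1, and for Dntt. Capitals mark matches to CAGGTG, an E-box bound by E proteins, or to CCCNNGGG, the core of the palindrome bound by EBF1, on either strand (CAGGTG reads CACCTG on the other strand).
Vpreb1, chr16:16869206-16869505, minus strand: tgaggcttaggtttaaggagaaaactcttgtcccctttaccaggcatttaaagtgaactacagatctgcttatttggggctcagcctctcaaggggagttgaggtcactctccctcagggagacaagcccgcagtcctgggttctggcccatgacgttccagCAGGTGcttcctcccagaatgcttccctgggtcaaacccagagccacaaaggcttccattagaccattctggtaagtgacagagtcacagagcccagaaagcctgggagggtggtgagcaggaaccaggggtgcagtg
Vpreb2, chr16:17980315-17980614, plus strand: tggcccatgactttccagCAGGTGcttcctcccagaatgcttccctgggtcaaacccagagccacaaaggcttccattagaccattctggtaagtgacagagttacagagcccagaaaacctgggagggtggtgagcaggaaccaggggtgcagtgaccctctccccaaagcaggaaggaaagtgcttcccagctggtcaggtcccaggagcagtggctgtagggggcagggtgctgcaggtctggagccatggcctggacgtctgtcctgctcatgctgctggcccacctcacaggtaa
Igll1, chr16:16863936-16864235, minus strand: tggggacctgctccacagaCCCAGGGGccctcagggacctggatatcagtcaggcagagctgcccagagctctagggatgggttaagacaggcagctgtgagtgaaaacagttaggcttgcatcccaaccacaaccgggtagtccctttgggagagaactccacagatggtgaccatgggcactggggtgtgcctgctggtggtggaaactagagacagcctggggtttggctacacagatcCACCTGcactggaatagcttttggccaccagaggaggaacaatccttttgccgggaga
Dntt, chr19:41029025-41029324, plus strand: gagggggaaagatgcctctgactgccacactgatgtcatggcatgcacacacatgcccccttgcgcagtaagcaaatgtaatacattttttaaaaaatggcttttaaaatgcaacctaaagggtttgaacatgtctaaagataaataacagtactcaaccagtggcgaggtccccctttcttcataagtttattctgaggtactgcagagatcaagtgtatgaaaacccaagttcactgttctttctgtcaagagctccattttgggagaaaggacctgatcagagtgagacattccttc

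A window was found for 7 of the 8 genes (not for Cd79b). CAGGTG lay 88 bases upstream of the start of Vpreb1, 8 upstream of that of Igll1 and 154 upstream of that of Cd79a, 3 of 7 genes, and 20.2% of 32851 promoters of this length held it. CCCNNGGG was in the window of Igll1 alone, 231 bases upstream (13.7% of promoters). The full EBF1 palindrome, which contains CCCNNGGG, was in 0 of 7 windows (0.904% of promoters). These are matches of letters and not measured binding. Igll1 (chr16:16860671-16863985, minus strand, GENCODE M21) and Vpreb1 (chr16:16868403-16870843, minus strand) lie 4.42 kb apart. Vpreb2 (chr16:17980428-17981273, plus strand), a copy of Vpreb1, lies 1.11 Mb further along. Their transcripts were identical at 97.4% of 759 aligned positions, and 15.7% of the 91-base stretches of Vpreb1 were found unchanged in Vpreb2. Reads from such stretches cannot be assigned, which makes the split of UMIs between Vpreb1 and Vpreb2 uncertain.

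Ebf1 (chr11:44617317-45008091, plus strand), the factor that opens the B cell program, was present in B-lineage cells at every stage, and at lower levels in progenitor clusters of all stages, with 37.2 CPM (31 UMIs) and 26.8 CPM in the HSPC1 clusters of the E16.5 libraries. It stood at 2411 and 1098 CPM in the E16.5 B-lineage cells, 1614 CPM in those from E18.5, 1729 CPM in newborn and 2132 CPM in adult ones. The E16.5 libraries were the highest and the lowest of all 5, so that the 2.20-fold spread of the perinatal libraries lay within 1 stage. Pax5 (chr4:44524757-44710487, minus strand), which holds cells in the B lineage, stood at 224, 140.3, 196, 165 and 200 CPM in the same order. It too spanned its whole perinatal range, 1.60-fold, between both E16.5 libraries, and the adult level lay inside that range.

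The signalling chains had their lowest library level in the adult, though not in each of its clusters. Cd79a (chr7:24897381-24902197, plus strand) stood at 1759, 1924, 1307, 1329 and 930.1 CPM in B-lineage cells. Cd79b (chr11:106311341-106314762, minus strand) stood at 978, 1036, 601, 698 and 476 CPM. For both, the E16.5 libraries lay close together, within 1.09-fold and 1.06-fold of each other, and were the highest of the 5. Within the adult, Cd79b was at 1252 CPM in Bcell3 and 280.0 CPM in Pre/Pro-B1. Cd79a was at 1594 and 750.4 CPM in these clusters. Pre/Pro-B1 and Bcell4 (459 UMIs of Cd79a and 336 of Cd79b among 627266) lay below all perinatal libraries for both genes. Pre/Pro-B2 (850 and 406 UMIs among 567608) lay inside the perinatal range for both.

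The surrogate light chain genes separated the adult clusters. Vpreb1 was at 2240, 2609, 1367 and 1576 CPM in perinatal B-lineage cells and at 1297 CPM in all adult ones. In the adult Pre/Pro-B clusters together it was at 1658 CPM (1621 to 1696), inside the perinatal range, and in the adult Bcell clusters at 129 CPM (111 to 149). That pooled value joined 1320 CPM (1285 to 1356) in Pre/Pro-B1 and 4082 CPM (3918 to 4252) in Pre/Pro-B2. Cluster BCell2 at P0 was higher still, at 4823 CPM (4550 to 5107). A high level in a single cluster was thus not particular to the adult. These high clusters were shallower, with a median of 2159.5 UMIs a cell in Pre/Pro-B2 against 7666 in Pre/Pro-B1. At P0 it was 3499 in BCell2 against 15440 in Bcell1. Vpreb1 UMIs numbered 2317 in 246 cells of Pre/Pro-B2 and 5381 in 441 cells of Pre/Pro-B1. Whether depth bears on these levels, or on those of other genes in these clusters, was not tested. Igll1 was at 1542, 1522, 913 and 897 CPM in perinatal cells, at 691 CPM (667 to 716) in adult Pre/Pro-B clusters and at 57.2 CPM (45.5 to 71.0) in the adult Bcell clusters. Of the Pre/Pro-B clusters, Pre/Pro-B1 lay below all perinatal libraries with 579 CPM, and Pre/Pro-B2 lay inside their range with 1499 CPM. Bcell3 and Bcell4 were also the clusters with much immunoglobulin kappa light chain, since Igkc stood at 14881 and 1570 CPM there, against 25.3 and 104 CPM in Pre/Pro-B1 and Pre/Pro-B2. Vpreb3 (chr10:75943057-75949657, plus strand), whose product binds free heavy chains in precursor B cells, did not separate them, with 1966 CPM in the Pre/Pro-B and 1904 CPM in the Bcell clusters. It was also the steadiest of the genes other than Dntt between perinatal libraries (2293, 2214, 1685 and 1818 CPM, a coefficient of variation of 14.8%).

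**Figure D1:**
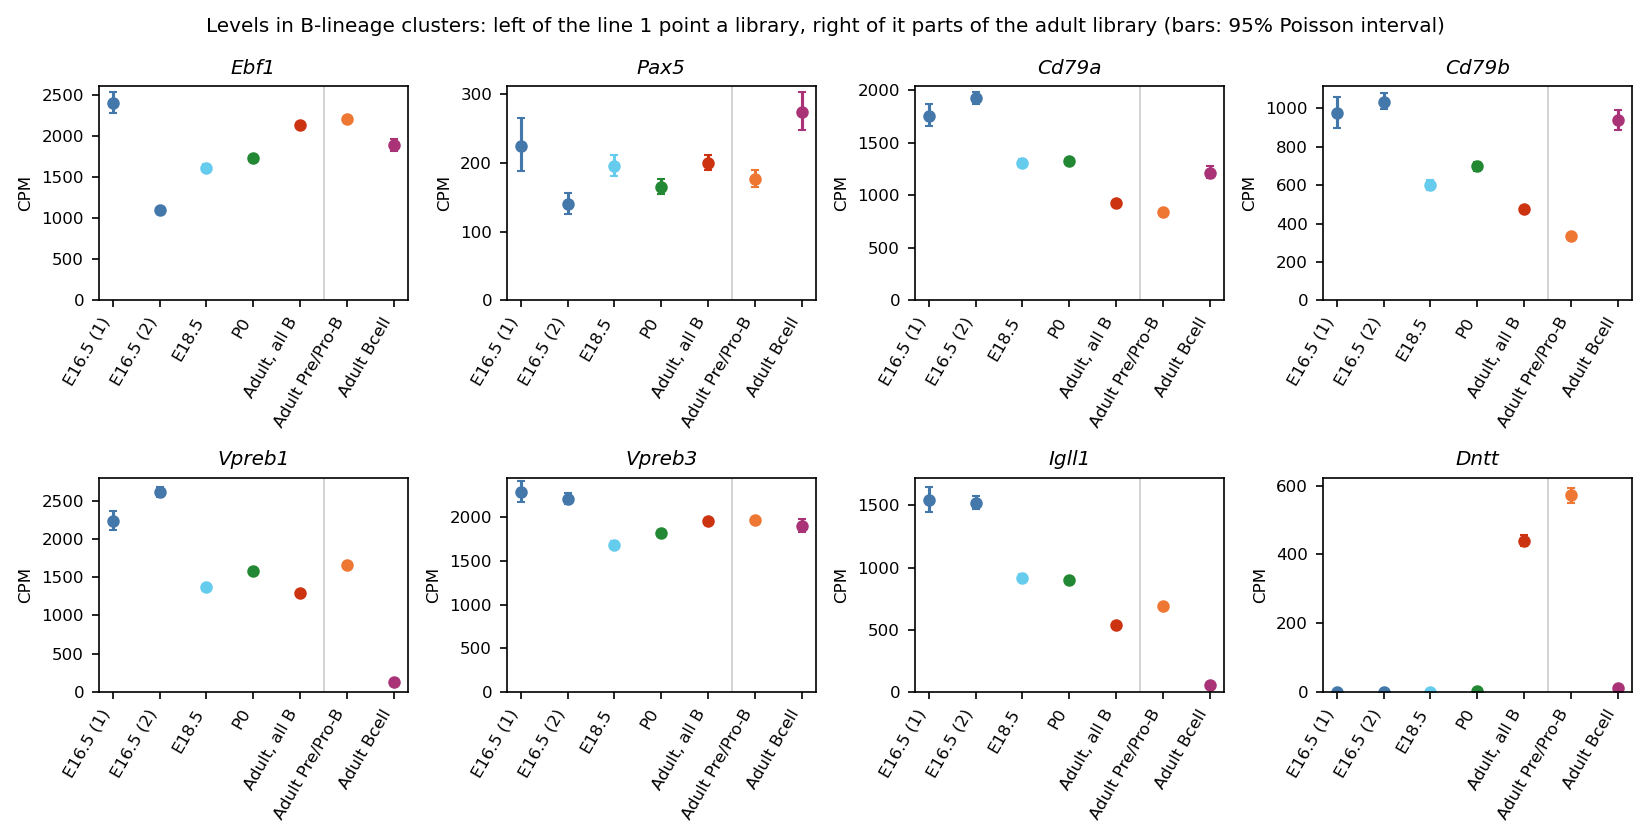
Level of each gene in B-lineage cells of each HP library (CPM, 95% Poisson intervals for counting error only), with the adult Pre/Pro-B and Bcell clusters also apart. Dntt runs from 0 in 3 perinatal libraries and 3.19 CPM at P0 to 440.1 CPM in the adult, while the other 7 genes stay within the same order of size between perinatal and adult B-lineage cells.

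Dntt (chr19:41029275-41059525, plus strand) was the gene with the large stage difference. No UMI was found in B-lineage cells of the first E16.5, the second E16.5 or the E18.5 library, among 603189, 2281127 and 3538507 UMIs of all genes. At P0 there were 18 UMIs, 3.19 CPM (1.89 to 5.05), and in the adult 2674 UMIs, 440.1 CPM (424 to 457). Counting 3 UMIs as the limit that a count of 0 allows, the adult level was at least 88.5-fold, at least 335-fold and at least 519-fold higher than in the 3 libraries without a UMI, and it was 138-fold (87.1 to 233) that at P0. All but 18 of the adult UMIs lay in the Pre/Pro-B clusters (2656 UMIs, 572 CPM). Of these clusters, Pre/Pro-B1 was at 511 CPM and the shallower Pre/Pro-B2 at 1013 CPM. The adult Bcell clusters held 12.6 CPM.

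**Figure D2:**
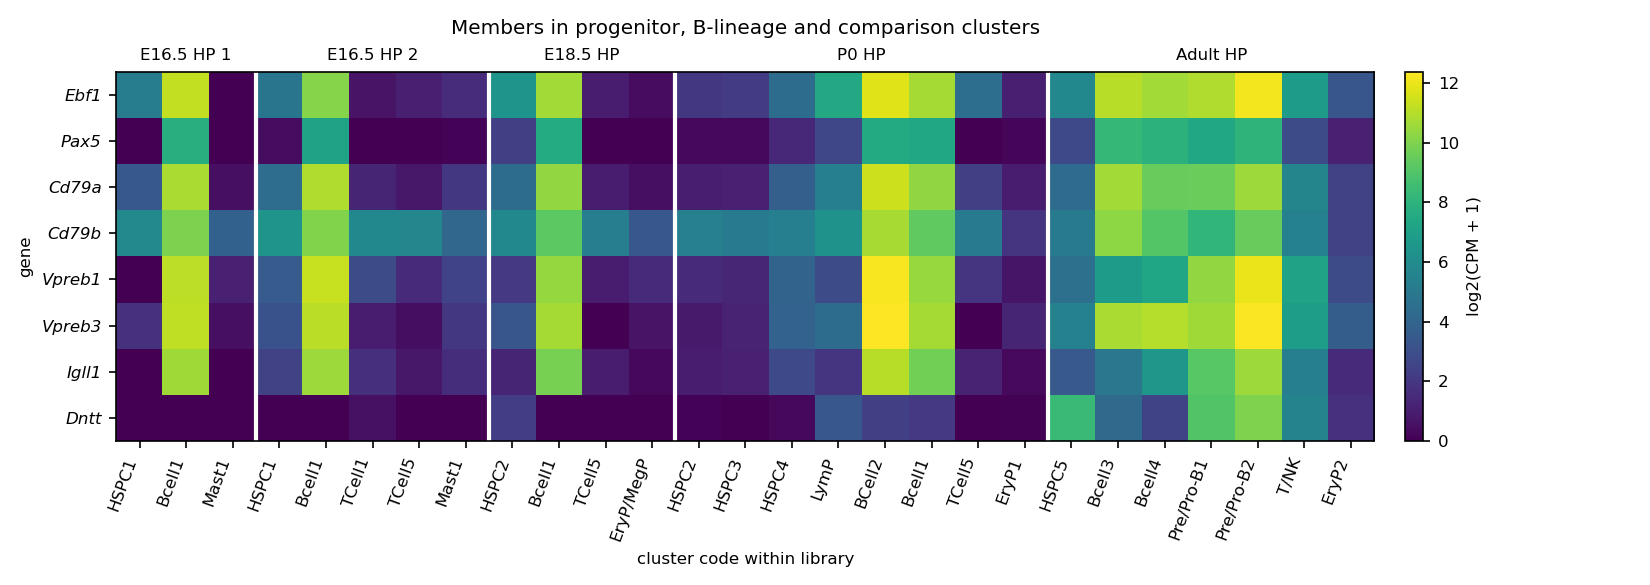
Level of each gene (rows, colour as log2(CPM + 1)) in progenitor, B-lineage, T cell, mast and erythroid clusters of at least 20 cells (columns), by HP library. The B-lineage clusters are high for 7 of the 8 genes at all stages, Vpreb1 and Igll1 are low in adult Bcell3 and Bcell4, and Dntt is high in adult Pre/Pro-B1, Pre/Pro-B2 and HSPC5.

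Summed counts of B-lineage cells were compared between the adult library and the 4 perinatal libraries with edgeR's quasi-likelihood test over all genes, at an adjusted p (Benjamini-Hochberg) threshold of 0.05. Dntt was the member called, 1 of 8, higher in the adult (adjusted p = 1.33e-06), while 3.69% of all 10770 genes tested were called (297 higher and 100 lower in the adult). With 1 adult library, the test assumes that adult libraries vary like the perinatal ones, and DESeq2 did not call Dntt (adjusted p = 0.488). It called 0 members, with 1 (Igll1) at an unadjusted p under 0.05, against 2.57% of all genes called (1.32% higher and 1.25% lower). The fitted log2 fold change of Dntt was 8.46 ± 0.57 (SE) by edgeR and 9.21 ± 5.13 by DESeq2, values that depend on each tool's handling of the 3 libraries at 0. The call was also lost when cells were chosen by 5 genes outside the list (adjusted p = 0.0929). Of the cells chosen that way, 28 of 62, 181 of 668, 152 of 434, 387 of 897 and 1028 of 1249 lay in B-lineage clusters. Dntt stood at 0, 0.186, 3.45, 5.56 and 399.8 CPM in the chosen cells, with a fitted log2 fold change of 7.44 ± 1.09. Over the alternatives of this fit the adjusted p for Dntt ran from 1.23e-43, with the adult set against E16.5 alone, to 0.488. Leaving out each perinatal library in turn gave adjusted p between 5.89e-15 and 0.000303.

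The 7 other genes gave log2 fold changes (adult minus perinatal, with SE) that did not pass this test. They were 0.55 ± 0.34 for Ebf1 (adjusted p = 0.412), 0.38 ± 0.28 for Pax5 (0.508) and 0.19 ± 0.29 for Vpreb3 (0.771) on the positive side. On the negative side were Cd79a with -0.54 ± 0.32 (0.391), Cd79b with -0.57 ± 0.34 (0.391), Vpreb1 with -0.36 ± 0.36 (0.638) and Igll1 with -0.93 ± 0.37 (0.192). These 4 turned positive with the cells chosen by 5 genes outside the list (0.73, 0.54, 0.96 and 0.36), where they did not pass the test either. B-lineage clusters held 1028 of the 1249 adult cells chosen that way. For the perinatal libraries it was 28 of 62, 181 of 668, 152 of 434 and 387 of 897. Igll1 stood at 580, 225, 295 and 336 CPM in the chosen perinatal cells, against 1542, 1522, 913 and 897 CPM in B-lineage clusters. In the adult, Igll1 was at 384 against 542 CPM. Whether this unequal make-up bears on the signs was not tested. A gene short of the threshold is not shown to be at the same level. In simulated counts of this comparison 79% of genes changed 4-fold were called. Folds as small as those fitted for these 7 genes were not simulated, and the simulated perinatal libraries shared the same mean. The 79% therefore does not say how often such small changes would be called.

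With the adult Pre/Pro-B clusters alone, which leave out the light chain-rich Bcell clusters, Dntt was again called (adjusted p = 1.45e-06, against 1.89% of 10704 genes called, 1.38% higher and 0.504% lower) and again not by DESeq2 (adjusted p = 0.582). The log2 fold change of Cd79b was then -1.07 ± 0.35 (adjusted p = 0.163) and that of Vpreb1 0.01 ± 0.35 (0.993), both short of the threshold. The pooled Cd79b value joined Pre/Pro-B1, below all perinatal libraries, with Pre/Pro-B2, inside their range. Each adult value can also be set against the range of the 4 perinatal values after TMM scaling. That scaling removes a shift of -0.21 in plain CPM (median log2 ratio of all genes, adult over perinatal). That shift stood beside the transcript Gm42418, at 11.1% of adult B-lineage UMIs against 0.213% to 0.448% of perinatal ones. Of the 8 genes, 7 lay outside the perinatal range, above it for Ebf1, Pax5, Vpreb3 and Dntt and below it for Cd79a, Cd79b and Igll1, but so did 52.8% of all genes (50.4% with the Pre/Pro-B clusters only, where the same 7 genes lay outside). In plain CPM, Ebf1, Pax5 and Vpreb3 lay inside the perinatal range. An exact permutation test of 1 library against 4 cannot give a p below 0.2.

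Shares of cells were compared after thinning each cell to 1000 UMIs, which left out 67 adult B-lineage cells with fewer. Dntt was found in 331 of 658 adult Pre/Pro-B cells, 50.3% (46.4 to 54.2), or 82.8% without thinning. Perinatal B-lineage cells with Dntt were 0 of 28, 0 of 181, 0 of 152 and 2 of 387, the last 0.517% (0.0626 to 1.85). Without thinning, the first 3 counts were again 0, which allows shares of cells with a UMI of up to 10.7%, 1.66% and 1.97% (3 cells of the total) and does not limit expression below that, and 12 of 387 newborn cells held Dntt. In adult erythroid progenitors (EryP2), which should lack Dntt, the share was 0.846%, or 2.11% without thinning. Their level of 2.40 CPM was among the lower ones of the 14 adult clusters outside the B lineage, whose median was 9.84 CPM, with 46.0 CPM in T/NK, 31.9 CPM in Mono5 (11.5% of cells without thinning) and 28.7 CPM in MyP4. The 12.6 CPM of the adult Bcell clusters lay within the range of these clusters. The share was 65.4% (58.9 to 71.5) in Pre/Pro-B2 and 42.0% (37.2 to 46.8) in Pre/Pro-B1, and without thinning 82.9% and 82.8%, values of 1 library without a test. Of the Pre/Pro-B cells with Dntt, 300 of 331 also held Ebf1. Nearly all Pre/Pro-B cells held Ebf1 without thinning (97.96% of Pre/Pro-B1 and 99.19% of Pre/Pro-B2). The overlap therefore does not show that both genes go together, and cells with and without Dntt were not compared for it.

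Ebf1 was found in 89.3%, 67.4%, 79.6%, 82.9% and 83.8% of B-lineage cells, Vpreb1 in 82.1%, 89.5%, 69.7%, 74.4% and 52.5%. The lower adult share of Vpreb1 came with the Bcell clusters (6.04%), whereas 81.8% of Pre/Pro-B cells held it. Both chains of the surrogate light chain, Vpreb1 and Igll1, were found together in 67.9% and 72.4% of B-lineage cells at E16.5, 39.5% at E18.5 and 51.9% at P0, and in 47.6% of adult Pre/Pro-B cells (33.3% of Pre/Pro-B1 and 73.5% of Pre/Pro-B2).

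**Figure D3:**
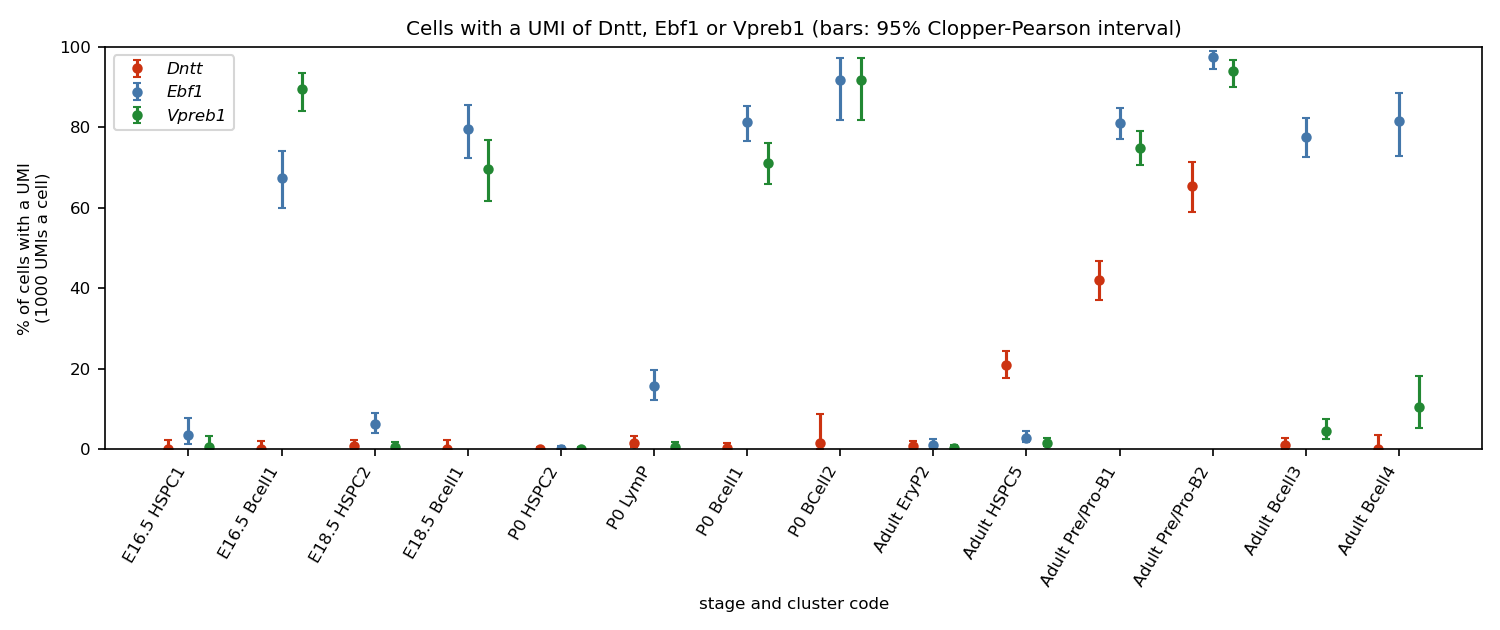
Share of cells with a UMI of Dntt, Ebf1 or Vpreb1 after thinning to 1000 UMIs (percent, with 95% Clopper-Pearson intervals for counting error only) in B-lineage and progenitor clusters and adult EryP2, without the first E16.5 library. Dntt is found in 42.0% and 65.4% of cells of the adult Pre/Pro-B clusters and in 21.0% of HSPC5, and in at most 1.64% of the cells of any perinatal cluster drawn.

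Outside the B-lineage clusters, both Dntt and Ebf1 were found in progenitor clusters, at levels that differed between the libraries. In the adult, the stem and progenitor cluster HSPC5 (629 cells) held Dntt at 336 CPM (321 to 352) and Ebf1 at 54.5 CPM. In the newborn, the lymphoid progenitor cluster LymP (388 cells) held Ebf1 at 177 CPM (167 to 188) and Dntt at 9.20 CPM (6.95 to 11.9). At E18.5, cluster HSPC2 (388 cells) held 84.3 CPM of Ebf1 and 3.79 CPM of Dntt. Adult HSPC5 thus held 36.5-fold (28.0 to 48.5) the Dntt of P0 LymP and 88.6-fold (64.3 to 126) that of E18.5 HSPC2. In E18.5 HSPC2, 22 of the 38 Dntt UMIs came from 1 cell, so that ratio rests largely on this cell and its interval is too narrow. Adult HSPC5 held at least 93.4-fold and at least 359-fold the Dntt of the E16.5 HSPC1 clusters, where no Dntt UMI was found. The P0 clusters HSPC2, HSPC3 and HSPC4 held 1, 0 and 1 Dntt UMIs. Against them HSPC5 stood 3496-fold (627 to 138173), at least 1783-fold and 1688-fold (303 to 66709) higher. These ratios compare single libraries and carry no test of stage, and the clusters were drawn within a stage and need not match.

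After thinning to 1000 UMIs, Dntt was in 131 of 625 HSPC5 cells (21.0%, 17.8 to 24.4) and Ebf1 in 18 (2.88%), against 1.06% for Ebf1 in adult EryP2. The 54.5 CPM of Ebf1 in HSPC5 stood above the median of the adult clusters outside the B lineage (25.3 CPM) and below T/NK (112 CPM) and Stroma (464 CPM, 19 UMIs), so Ebf1 does not set HSPC5 apart. Ebf1 was in 61 of 388 LymP cells (15.7%) and in 24 of 388 E18.5 HSPC2 cells (6.19%), with Dntt in 1.55% of LymP. LymP held 0.0297 UMIs of Pax5 per UMI of Ebf1 (0.0202 to 0.0422), where B-lineage cells held 0.0928, 0.128, 0.121, 0.0955 and 0.0938. Single B-lineage clusters came closer to LymP, with 0.0524 (0.0380 to 0.0708) in P0 BCell2, whose interval overlaps, and 0.0581 in adult Pre/Pro-B2. E18.5 HSPC2 stood at 0.0485, and HSPC1 of the second E16.5 library at 0.0116 from 1 UMI of Pax5. Not all progenitor clusters were low. Adult HSPC5 stood at 0.104 (0.0697 to 0.151) and P0 HSPC4 at 0.0808 (0.0339 to 0.166), with intervals that cover the B-lineage values. Adult EryP2 stood at 0.129 (0.0701 to 0.222) and all adult clusters outside the B lineage together at 0.108 (0.0885 to 0.130). The ratio thus does not set HSPC5 apart from other adult cells, and whether free RNA bears on it was not tested. P0 HSPC2 and HSPC3 stood at 0.0625 and 0.0545, from 2 and 3 UMIs of Pax5.

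Over whole libraries, Dntt UMIs numbered 0, 19, 38, 88 and 5034. Of the 38 at E18.5, 22 came from 1 cell. Adult Dntt UMIs lay to 53.1% in B-lineage clusters, to 36.4% in HSPC5, to 0.457% in T and NK cells and to 10.1% in the remaining clusters. These classes made up 19.0%, 10.5%, 1.82% and 68.6% of adult cells. The small share of T and NK cells thus goes with few cells, since their level was 46.0 CPM.

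Progenitors with a UMI of Dntt or Ebf1 were set beside the rest of their cluster. These are pooled values of 1 library without a test. Adult HSPC5 cells with Dntt (236 cells, median 8083.5 UMIs) held more Flt3 (266 against 88.6 CPM), the receptor of early lymphoid progenitors, than those without (393 cells, median 7269 UMIs). The IL-7 receptor gene Il7r stood at 104 against 1.5 CPM, and Ly6d, a marker of B-biased progenitors, at 215 against 19.3 CPM. Ebf1 was at 119 against 14.6 CPM, with 248 of its UMIs in the cells with Dntt and 49 in the others. The stem cell factor Hlf (69.0 against 144 CPM) and the myeloid gene Mpo (463 against 1341 CPM) were lower in the cells with Dntt. On the protein side, the median antibody count for CD135, the FLT3 receptor, was 4 against 1.

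P0 LymP cells with Ebf1 (202 cells) against those without (186 cells) held 185 against 68.8 CPM of Il7r and 65.8 against 2.9 CPM of Rag1, a subunit of the recombinase. Cd79a stood at 70.1 against 3.9 CPM, Vpreb3 at 34.7 against 2.5 CPM, Pax5 at 9.1 against 0.7 CPM and Dntt at 13.7 against 3.9 CPM. Their Hlf was at 9.7 against 47.8 CPM. Flt3 (180 against 191 CPM) and Ly6d (125 against 105 CPM), which set the HSPC5 cells with Dntt apart, were close in both sets of LymP cells. Few LymP cells held Dntt (31 cells, against 357 without), and these had 223 against 124 CPM of Il7r and 332 against 165 CPM of Ebf1. Their Ly6d (114 against 116 CPM) and Mpo (366 against 369 CPM) were close to those of the rest, and Vpreb3 stood at 4.54 (2 UMIs) against 21.1 CPM. E18.5 HSPC2 cells with Ebf1 (96 cells) against those without (292 cells) held 134 against 14.1 CPM of Il7r, 197 against 101 CPM of Flt3, 68.8 against 2.05 CPM of Ly6d, and all 38 Dntt UMIs of the cluster.

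Ratios between members within a library do not depend on its total. Igll1 over Vpreb1 was 0.688, 0.584, 0.668, 0.569 and 0.417 UMIs per UMI in B-lineage cells, lowest in the adult. The adult value was 0.438 in Pre/Pro-B1 and 0.367 in Pre/Pro-B2. P0 BCell2 also stood at 0.438 (0.394 to 0.486), so the low ratio was not particular to the adult library. Nor was it shared by all adult clusters, with 0.270 in Bcell3 (24 UMIs of Igll1) but 0.604 (0.428 to 0.846) in Bcell4 (58 UMIs). Vpreb2 over Vpreb1 was 0.152, 0.152, 0.161, 0.152 and 0.137 in B-lineage cells. Single clusters ran further apart, with 0.208 (0.180 to 0.239) in P0 BCell2 and 0.0208 (2 UMIs of Vpreb2) in adult Bcell4. Progenitor clusters had 0.529 (0.281 to 0.964, 18 UMIs of Vpreb2) in HSPC1 of the second E16.5 library, 1.05 in P0 LymP (0.655 to 1.70, 39 UMIs of Vpreb2 in 25 cells) and 1.34 in E18.5 HSPC2 (0.831 to 2.19, 43 UMIs of Vpreb2 in 25 cells). Of the Vpreb1 UMIs, 1 cell gave 18 of 34 in that HSPC1, 11 of 37 in LymP and 11 of 32 in E18.5 HSPC2. These intervals are therefore too narrow. The ratio was 0.230 (0.146 to 0.348) in adult HSPC5 and 0.105, 0.125 and 0.111 in P0 HSPC2, HSPC3 and HSPC4, from 2, 3 and 8 UMIs of Vpreb2. The near-identity of both transcripts shown above limits how far this split can be read. Cd79b over Cd79a was 0.460 to 0.556 in B-lineage cells of every library. Single B-lineage clusters ran from 0.373 (0.348 to 0.400) in Pre/Pro-B1 to 0.786 (0.723 to 0.854) in Bcell3. In all other clusters together it was 33 (from 11 UMIs of Cd79a), 10.4, 6.25, 6.05 and 2.25, and Cd79b was the more widespread gene there. Not every such cluster had an excess of Cd79b, since adult EryP2 stood at 0.982 (0.665 to 1.45).

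**Figure D4:**
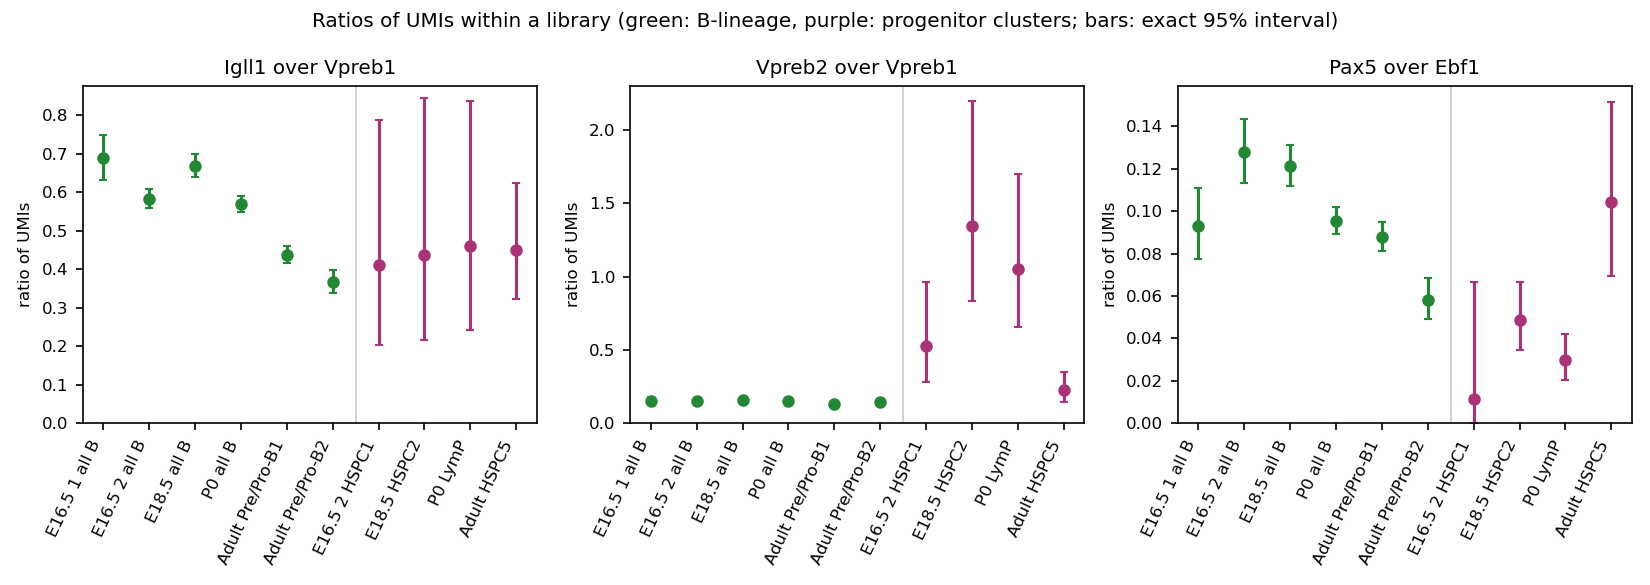
Ratios of the UMIs of 2 genes within the same cells (UMIs per UMI, with exact 95% intervals for counting error only) in B-lineage cells (green) and progenitor clusters (purple), for Igll1 over Vpreb1, Vpreb2 over Vpreb1 and Pax5 over Ebf1. Igll1 over Vpreb1 is 0.569 to 0.688 in perinatal B-lineage cells and 0.438 and 0.367 in the adult Pre/Pro-B clusters, and Vpreb2 over Vpreb1 is near 0.15 in B-lineage cells of every library but 1.05 in P0 LymP.

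Of the genes that work with the 8, the pre-B cell receptor and B lineage list had 13 of 25 genes higher and 0 lower in adult B-lineage cells (median log2 fold change 1.12, against -0.00 over all genes, of which 2.76% were called higher). The light chains led. Igkc was at 56.4, 96.9, 114 and 24.3 CPM in perinatal and 2162 CPM in adult cells. The surface IgM heavy chain gene Ighm was at 1008, 973, 948, 861 and 2051 CPM. In the Pre/Pro-B clusters Igkc stood at 34.9 CPM, inside the perinatal range. Ighm stood at 598.5 CPM in Pre/Pro-B1, below all 4 perinatal libraries, and at 940.8 CPM in Pre/Pro-B2, inside their range (640.4 CPM together). With those clusters alone, 4 of 25 genes were called (median -0.01, against 1.38% of all genes called higher), namely Blnk, the adaptor of the pre-B cell receptor (log2 fold change 1.11), Cd72 (1.23), Iglc1 (3.54) and Iglc2 (3.49), the last pair being light chain genes of a multigene family whose counts are uncertain. That count was 1 without the first E16.5 library and 1 with DESeq2 (1.16% and 1.30% of all genes called in either direction). Over all adult B-lineage cells it was 9 and 8 in place of 13 (2.44% and 2.57% of all genes), and 4 with the cells chosen by 5 genes outside the list (0.196% of all genes).

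Of 16 B lineage transcription factors, Ikzf3 (log2 fold change 3.41) and Bach2 (1.93) were higher in all adult B-lineage cells, 2 of 16 against 2.76% of all genes. In the Pre/Pro-B clusters 0 of 16 were called by edgeR or by DESeq2, with 3 at an unadjusted p under 0.05 by each tool, and 1600 of all 10704 genes were at such a p by edgeR. Of 13 genes of V(D)J recombination and end joining, Polm was called in all adult B-lineage cells (15.5 CPM against 0.9 to 1.7 CPM), and the median of the list was -0.09. In the Pre/Pro-B clusters, where Polm was at 2.2 CPM and fell under the count filter of the edgeR test, 0 of 12 genes were called by edgeR, with 1 at an unadjusted p under 0.05. DESeq2 called 0 of 13, also with 1 at such a p. Ikzf3, Bach2 and Polm were not called with the cells chosen by 5 genes outside the list, where far fewer of all genes were called. The recombinase genes did not pass the test. Rag1 stood at 209, 101, 121, 186 and 96.4 CPM and Rag2 at 89.5, 49.5, 49.7, 59.6 and 46.1 CPM, with the adult the lowest for both in plain CPM but for neither after TMM scaling. In the adult, Rag1 was at 45.2 CPM in Pre/Pro-B1 and 463 CPM in the shallower Pre/Pro-B2. The large difference in Dntt thus stood beside recombinase levels that were not shown to differ.

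The fetal lymphoid program, RNA-binding and chromatin proteins known from fetal progenitors, was lower in the adult for 4 of 5 genes (median log2 fold change -5.19, with 0.929% of all genes called lower, or -4.94 with the genes that had no adult UMI counted at their bound of 3). With the cells chosen by 5 genes outside the list, 1 of 5 was called (median -4.75), where 3 of all 13233 genes were called lower. Lin28b was at 58.0, 30.2, 25.4, 24.8 and 0 CPM and Igf2bp1 at 18.2, 25.9, 10.7, 5.7 and 0 CPM. Igf2bp3 (log2 fold change -1.71) and Hmga2 (-5.19) were the others called. Arid3a (-1.20, adjusted p = 0.072) was short of the threshold there and was called in the Pre/Pro-B clusters (-2.08), where all 5 genes were called lower, against 0.504% of all genes. In the B-lineage cells these 4 genes and Dntt ran in opposite directions between the perinatal libraries and the adult.

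**Figure D5:**
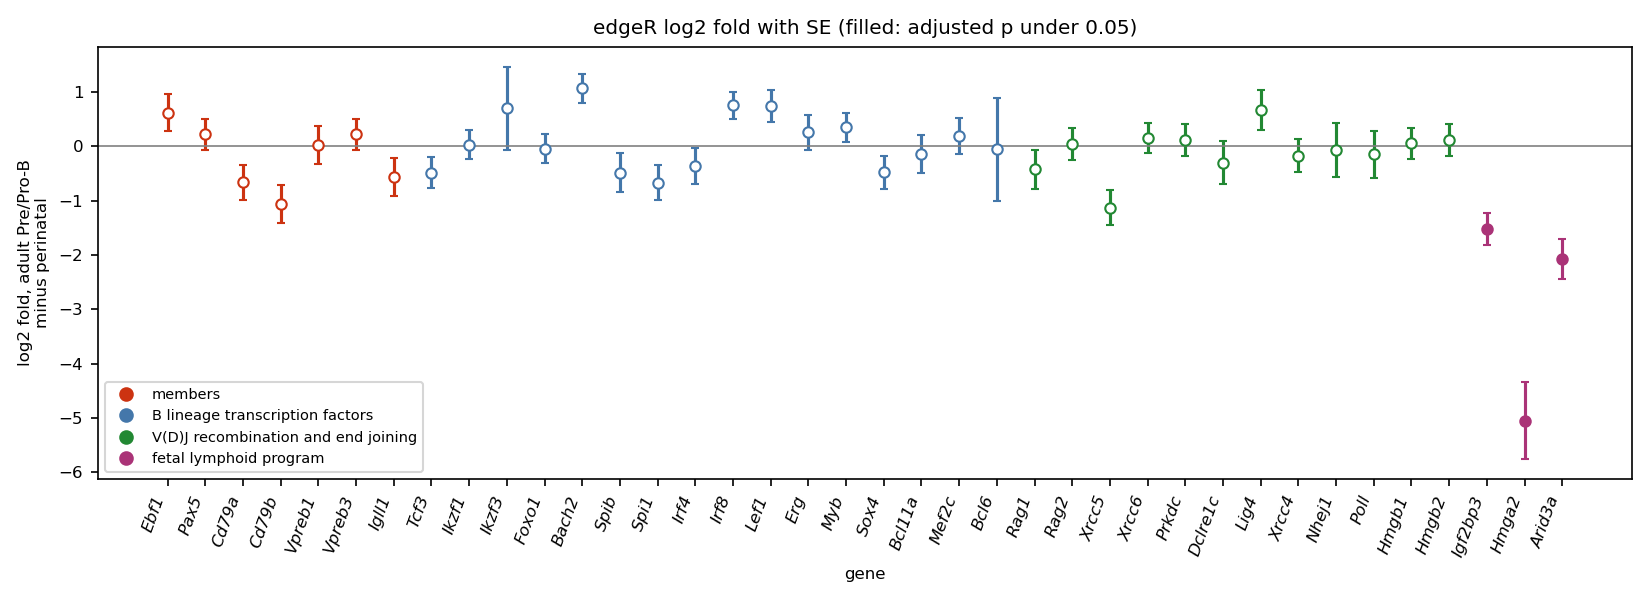
Log2 fold change with SE (adult Pre/Pro-B clusters minus 4 perinatal libraries, edgeR) for 38 genes of the member, transcription factor, V(D)J and fetal program lists, with genes past the adjusted p threshold of 0.05 filled. Dntt, Lin28b and Igf2bp1 are not drawn, since their groups hold libraries at 0. The 3 filled genes are Igf2bp3, Hmga2 and Arid3a, all below 0.

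Across 81 groups of 1 library and 1 cluster with at least 20 cells, the genes whose log2(CPM + 10) was most like the mean of the 8 members included Pou2af1 (Pearson r = 0.957) and Cplx2 (0.949), followed by 1700027J07Rik, Chst3, Cecr2, Akap12, Vpreb2, Hmgcll1 and Capsl (0.933 to 0.908). The members themselves ran from 0.982 for Vpreb3 to 0.868 for Cd79b, and Dntt stood apart at 0.544. Each member is part of the mean it is compared with, which raises its r over that of other genes. Between pairs of members, r was 0.284 to 0.470 for pairs with Dntt, and the lowest r of any other pair was 0.785. Groups of a library share its depth and free RNA, and these correlations are a description.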

How the data were processed

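The authors deposited raw UMI counts per gene and cell, raw antibody counts, and a table of each cell's library, cluster code and compartment. Per the submitters' processing notes, Cell Ranger 3.1.0, R 4.0, Seurat 3.1.5 and mm10 were used. Per the paper's methods, genes in few cells, cells low in UMIs or high in mitochondrial UMIs, and the cells highest in UMIs or genes (putative doublets) had been removed. Scrublet (scanpy 1.11.5) marked 0.0334% to 0.179% of the remaining cells, too few to judge doublets by, and whether it worked was not tested. Cells were used as deposited.

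Counts were summed per library over B-lineage clusters (603189 to 6075707 UMIs). The adult library was compared with the 4 perinatal ones with edgeR 4.0.16 in R 4.3.3 (TMM, filterByExpr, quasi-likelihood F test, 3 residual degrees of freedom, Benjamini-Hochberg over all genes). SE is the log2 fold change over the root of F. The procedure was tested on simulated data, where 0.0391% of unchanged genes were called. DESeq2 1.42.0 was an alternative, beside RLE scaling, no filter, 1 group per stage, other choices of cells and each library left out. Other steps used Python 3.11.15 with anndata 0.12.19, biopython 1.88, matplotlib 3.10.9, numpy 2.4.6, pandas 2.3.3 and scipy 1.17.1.

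The named genes are the 8 members, and of 4 lists of related genes those past the test, at most 5 each way by size of fold, plus those a result turns on, and the 10 genes most like the members' mean, of which 1 is not reported here. Members and lists were chosen with earlier results of these data known. Kit, Flt3, Ly6d, Hlf and Mpo were taken from the sort and the marker lists.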

Additional observations from a re-analysis of the deposited data

Results flagged for a closer look

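In B-lineage cells of the 4 perinatal libraries, Dntt was at 3.19 CPM at P0 (18 UMIs) and at 0 in the other 3, and the P0 value was picked out for its gap to the others. With 3 values at 0 any value above 0 would have been picked out, so the gap alone carries no weight. The P0 level (1.89 to 5.05) lies above the 1.32 and 0.848 CPM that the 0 of the second E16.5 and of the E18.5 library allow (3 UMIs), while the 4.97 CPM that the 0 of the first E16.5 library allows lies within its interval. These bounds cover counting error in single libraries, and a difference between stages was not tested. The nominal rate, by which chance picks out about 1 in 20 groups, does not hold with 3 values tied at 0.

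Antibody counts lie outside the transcript comparisons. In the second E16.5 library, the median CD93 antibody count was 10 in B-lineage cells and 1 in all other cells, with quartiles of 6 and 15 against 0 and 2.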

How the results depend on the processing

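The number of genes called between adult and perinatal B-lineage cells was 397, and it was 767 without the filter on low counts, 679 with 1 group per stage and the adult set against E16.5 alone, 202 with the Pre/Pro-B clusters only and 26 with cells chosen by 5 genes outside the list. Genes higher in the adult (297) became 513, 475, 148 and 23 in that order and 136 with DESeq2, and genes lower in the adult (100) became 254, 204, 54 and 3. Leaving out each perinatal library in turn gave 268 to 467 genes called, 210 to 344 higher and 58 to 130 lower, with the 58 from leaving out the first E16.5 library, and 1 member called each time. The number of members called (1, Dntt) was 0 with cells chosen by 5 genes outside the list and 0 with DESeq2, and the cause was not tested. In these settings 3 members (Pax5, Vpreb3 and Dntt) and 1 (Igll1) had an unadjusted p under 0.05, as did 1562 of all 13233 and 1229 of all 10328 genes. The Dntt level of adult B-lineage cells (440.1 CPM) was 399.8 with cells chosen by the 5 genes, 572 in the Pre/Pro-B clusters and 500.0 without Gm42418, Lars2 and AY036118 in the total, an alternative chosen after seeing the data, as was leaving out shared barcodes. The share of Pre/Pro-B cells with Dntt (50.3%) was 67.3% at 2000 UMIs a cell and 82.8% without thinning.

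With the Pre/Pro-B clusters only, the log2 fold change changed sign for these listed genes called in all B-lineage cells, Cd74 (-0.0021), Fcrla (-0.25), Ighm (-0.33), Igkc (-0.85) and Ms4a1 (-0.61), since the Bcell clusters were left out. Among listed genes not called there, the sign also changed for Bcl6, Cd22, Dclre1c, Erg, Hmgb1, Irf4, Pou2af1, Rag2, Spib, Syk and Vpreb1. RLE scaling and leaving out cells under 1000 UMIs, the shallower cells of shared barcodes or the 2 B-lineage cells marked by Scrublet moved none of the counts of genes by over 1.5 times. No paired analysis was possible because only the E16.5 libraries carry replicate numbers and every other stage has 1 library. Depth limits what can be said of Dntt in the 28 B-lineage cells of the first E16.5 library, where 0 UMIs allow a level of up to 4.97 CPM.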
